A study of Rattus norvegicus and Mus musculus with 18 samples.

Results

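Solute carriers of families SLC1 to SLC24 were followed across the tissues of the early metanephric kidney of mouse and rat. Members were the genes whose only annotated symbol is Slc, a family number from 1 to 24, the letter a and a member number, so the Slco transporters and families from SLC25 upwards were left out. The arrays held 172 such genes of 19342 genes with a probe set of 1 symbol, a probe set being the group of short oligonucleotides that reports 1 transcript. In mouse 167 members were measured by 308 probe sets. In rat 123 members were measured, 84 on the first array design, 34 on design B and 29 on design C, with 21 of them on more than 1 design.

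Mouse kidneys were taken at E12.5 and separated into ureteric bud tips, ureteric bud stalks and metanephric mesenchyme, with RNA from about 1000 tips, 350 stalks and 300 mesenchymes. Rat kidneys were taken at E13.5 and separated into whole ureteric buds, about 1200 of them, and 240 mesenchymes. All tissues had been digested for 10 min with DNase (100 U/ml) and trypsin (1 mg/ml), and no group received any other treatment. Genotype, strain and sex were not named in the labels. Each RNA was a pool, and the 2 arrays of a tissue were 2 labelings of 1 ug of that RNA, so the p-values below measure the spread of labeling and hybridisation and not the spread between animals. Because the tissues were measured in bulk, fewer cells of a type and less RNA per cell cannot be told apart.

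Solute carriers move small molecules and ions across membranes, either down a gradient or coupled to sodium, protons or another solute. In the mature kidney they carry out tubular reabsorption and secretion of glucose, amino acids, salts and organic ions. In the embryonic kidney, before filtration starts, dividing bud and mesenchymal cells use the widely expressed glucose, amino acid, lactate and chloride carriers. The ureteric bud is an epithelium whose repeated branching forms the collecting duct system, while the surrounding mesenchyme supplies nephrons and stroma. The title of the symbol families implies a plasma membrane site, but 17 of the 167 mouse members belong to carriers known mainly from vesicles, endosomes, lysosomes or other inner membranes, such as the vesicular carriers of families SLC17 and SLC18. Of those 17 members, 7 were tested.

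The tissue labels were checked against marker genes before the transporters were read. The summed intensity of 10 epithelial markers was 22868 to 23350 in tips, 14779 to 15180 in stalks and 693 to 716 in mesenchyme. The summed intensity of 8 nephron progenitor markers was 705 to 813, 1962 to 2041 and 6449.5 to 6461 in the same order. The 10 stromal markers summed to 1376 to 1649 in tips, 14571 to 14802 in stalks and 12186 to 12206 in mesenchyme, so the stalk preparation carried stromal transcripts at least at the level of the mesenchyme. Endothelial markers (969 to 1078, 1877 to 1957, 2868 to 2902), neuronal markers (314 to 329, 519 to 535.5, 942 to 1097), macrophage markers (422 to 556, 734 to 767, 1088 to 1102) and erythroid markers (8773 to 9319, 16550.3 to 16612, 22138 to 22443) were lowest in tips and highest in mesenchyme. Bud tip markers (5599 to 5871, 1743 to 1775, 1034 to 1129) and the few early tubule markers (813 to 917, 515 to 553, 274 to 321) ran the other way. No array listed a marker at 0. On the rat first design, 6 epithelial markers summed to 3951 to 4551 in buds and 859 to 939 in mesenchyme, and 8 stromal markers to 1079 to 1179.9 and 4333 to 4905. On design B, 4 epithelial markers summed to 3031 to 3306 in buds and 518 to 522 in mesenchyme. On design C the 1 epithelial marker measured read 1628 to 1683 and 33.1 to 34.4. The nephron progenitor markers were lower in buds on the first design (3 genes, 415 to 435 and 879 to 954) and on B (2 genes, 377 to 460 and 826 to 953). On C the 1 progenitor marker measured, Crym, went against its label, at 1291 and 864 in buds and 169 and 133 in mesenchyme, and was called higher in buds (2.69). The second rat bud labeling stood apart on all designs, with a Gapdh 3'/5' signal ratio of 4.43, 5.28 and 4.26 on the first, B and C arrays against 1.25 to 1.47 on the other rat arrays and 0.903 to 1.01 in mouse. The differences of the rat genes named below are therefore also given without it.

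A probe set entered the tests if, in 1 tissue or more, its mean log2 intensity was no lower than the table median, an intensity of 49.3 in mouse and of 111, 118 and 115 on the rat first, B and C designs. In mouse 91 members passed, and in rat 46, 18 and 14. A member that passed through 1 tissue alone had to be lower elsewhere, so shares among the members that passed are set beside the shares of all genes tested the same way and are read as descriptions. Differences are on the scale of log2(intensity + 16), where 1 is 2-fold and weak signals are understated. A gene was called when its difference was at least 2-fold and its adjusted p was under 0.05 in the limma fit. Of the mouse comparisons, those that share a tissue share its arrays and are not independent of each other.

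Between bud tip and stalk, 2 of 91 tested members were called (2.2%, against 5.33% of the 12354 mouse genes tested). The glucose carrier Slc2a3 was higher in tips (1.1%, against 1.16%) and the sodium-calcium exchanger Slc8a3 was higher in stalks (1.1%, against 4.18%). Between tip and mesenchyme 10 members were called (11%, against 9.71%), 4 higher in tips (4.4%, against 4.65%) and 6 higher in mesenchyme (6.59%, against 5.05%). Between stalk and mesenchyme 2 were called (2.2%, against 3.5%), 2 higher in stalks (2.2%, against 2.94%) and 0 lower (0%, against 0.559%). Between the mean of tip and stalk, taken as the bud, and the mesenchyme 4 were called (4.4%, against 5.76%), 3 higher in bud (3.3%, against 3.59%) and 1 lower (1.1%, against 2.18%). These shares lay near or below those of all genes, so the counts alone set the members apart in none of these comparisons, and the results lie in the single genes. Counted by adjusted p under 0.05 at any fold, 23 members differed between tip and stalk (25.3%, against 33.1%), 31 between tip and mesenchyme (34.1%, against 38.5%), 12 between stalk and mesenchyme (13.2%, against 15.6%) and 27 between bud and mesenchyme (29.7%, against 29.1%). Higher in the tissue named first were 13 (14.3%, against 15.9%), 20 (22%, against 18.4%), 8 (8.79%, against 9.92%) and 17 (18.7%, against 13.9%), and lower there were 10 (11%, against 17.2%), 11 (12.1%, against 20.1%), 4 (4.4%, against 5.72%) and 10 (11%, against 15.2%). The count between tip and stalk depended on single arrays and on the scaling. It was 42 without the first tip array and 9 without either stalk array, and with the values as deposited it was 14, with 4 higher and 10 lower in tips. Without the second mesenchyme array 15 members passed between bud and mesenchyme. With the replicate number as a block 42 members passed between tip and stalk, and the count between stalk and mesenchyme rose as well. The median difference over all 167 members was 0.09 between tip and stalk and -0.01 between bud and mesenchyme, beside 0.04 and -0.02 over all 18193 genes measured.

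**Figure D1:**
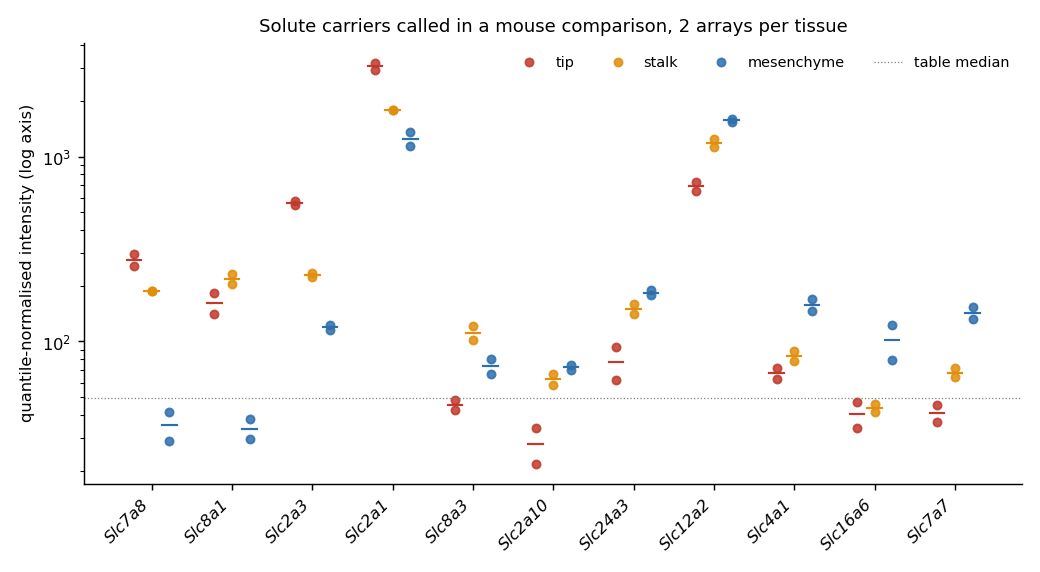
Quantile-normalised intensity on a log axis of the 11 members called in any mouse comparison, with 1 point per array, a bar at the mean of the 2 arrays of a tissue and a dotted line at the table median. Slc7a8 and Slc8a1 lie below the median in mesenchyme and above it in tips and stalks, whereas Slc7a7 lies below it in tips only.

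Sugar carriers held the only member called in a single tissue. Of 17 sugar carriers 14 were tested, 3 passed the adjusted p higher in tips than in stalks and 5 passed it lower, beside 15.9% and 17.2% of all genes tested, and the differences ran from -0.85 to 1.24. Slc2a3 encodes GLUT3, a facilitative glucose carrier of high affinity known from neurons and early embryos. Its intensity was 545 and 576 in tips, 222 and 235 in stalks, and 116 and 122 in mesenchyme. The 3 tissues did not overlap and fell in the order tip, stalk, mesenchyme, and the mean was 561 ± 22.2 in tips, 229 ± 9.0 in stalks and 119 ± 4.41 in mesenchyme (SD, n = 2 arrays each). Tips exceeded stalks by 1.24 ± 0.084 (SE; adjusted p = 1.2e-05) and mesenchyme by 2.09 ± 0.084 (SE; adjusted p = 2.1e-07). It was the 1 member called higher in tips than in both other tissues, a class that held 137 of the genes tested (1.11%). The 3 tested probe sets of Slc2a3 gave tip-minus-stalk differences of 0.85, 1.24 and 1.18, and the first of these was under 2-fold. Another probe set, too dim to be tested, gave 0.64, and the mean of all 4 was 0.98 and not called.

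Slc2a1 encodes GLUT1, the widely expressed basal glucose carrier. The intensity of Slc2a1 was 3215 and 2924 in tips, 1796 and 1780.4 in stalks, and 1352 and 1146 in mesenchyme. Tips stood above stalks and stalks above mesenchyme on every array, with tips exceeding mesenchyme by 1.29 ± 0.076 (SE; adjusted p = 2.2e-06) and stalks by 0.77 ± 0.076 (SE; adjusted p = 0.000107), the latter under 2-fold. All 3 tested probe sets of the gene were called between tip and mesenchyme, with differences of 1.29, 1.31 and 1.40. Other carriers of the family ran the other way. Slc2a4, the insulin-regulated GLUT4 of muscle and fat, read 121 and 109 in tips, 149 and 163 in stalks, and 209 and 207 in mesenchyme, and tips were lower than mesenchyme, with a tip-minus-mesenchyme difference of -0.77 ± 0.11 (SE; adjusted p = 0.000595). Slc2a8, a mainly intracellular hexose carrier, read 220.2 and 215 in tips, 288 and 307 in stalks, and 316 and 375 in mesenchyme, a tip-minus-mesenchyme difference of -0.63 ± 0.095 (SE; adjusted p = 0.000934).

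Slc2a10, which encodes the intracellular carrier GLUT10 linked to arterial tortuosity, read 34.2 and 21.8 in tips, 66.8 and 58.5 in stalks, and 75.0 and 69.8 in mesenchyme. Both tip values were under the filter of 49.3. Tips were lower than mesenchyme, with a tip-minus-mesenchyme difference of -1.02 ± 0.17 (SE; adjusted p = 0.00135), a call that was lost with a pseudocount of 64 (-0.57), with the mean of its probe sets (-0.92), in a test against a 1.5-fold difference, and without the second tip array (-0.83) or the first mesenchyme array (-0.97). Slc2a12 and Slc2a13, the latter a proton-coupled inositol carrier, were lower in tips than in stalks at adjusted p = 0.023 and 0.0284, with differences of -0.64 and -0.43, and the tip-minus-mesenchyme differences of -0.37 and -0.27 did not pass. The sodium-coupled inositol carrier Slc5a3 read 496 and 427 in tips, 386 and 391.7 in stalks, and 366 and 355 in mesenchyme, and its tip-minus-mesenchyme difference of 0.34 ± 0.08 (SE; adjusted p = 0.0104) was under 2-fold. Slc2a10 and Slc5a3 were picked for naming after their values were seen, as were Slc24a3, Slc16a6, Slc3a2, Slc6a6, Slc6a8, Slc19a2 and Slc22a23 below. Like Slc2a10, Slc2a12 and Slc2a13, the stromal markers given above were lower in tips than in stalks, whereas Slc5a3 ran the other way. The endothelial, neuronal, macrophage, erythroid and nephron progenitor markers were lower in tips than in stalks too. The part of any of these markers in these values was not tested.

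**Figure D2:**
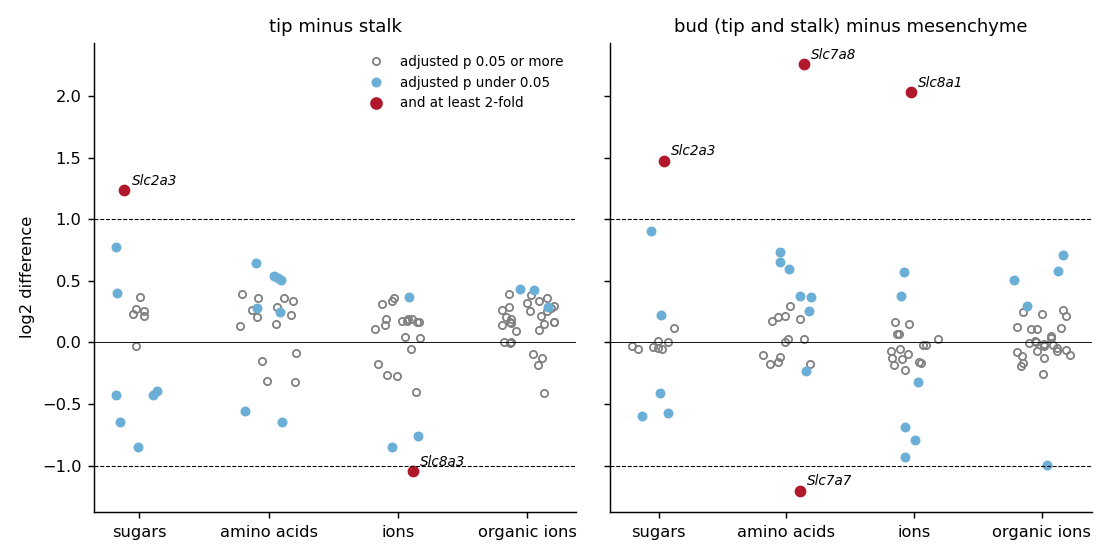
Log2 difference of each tested member, grouped by substrate on the horizontal axis, for tip minus stalk and for bud minus mesenchyme. Open points did not pass, blue points passed the adjusted p of 0.05 alone and red points were also at least 2-fold, and the dashed lines mark 2-fold. Most of the 91 members lie between the dashed lines in both panels, and 2 and 4 members are labelled as called.

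Among the amino acid carriers, Slc7a8 had the largest tip-minus-mesenchyme and bud-minus-mesenchyme differences of the tested mouse members. Of 47 amino acid carriers 22 were tested, and 6 passed the adjusted p higher in tips than in stalks against 2 lower. Between bud and mesenchyme 7 passed higher and 2 lower. Of all genes tested, 15.9% and 17.2% passed in the first comparison and 13.9% and 15.2% in the second. Slc7a8 encodes LAT2, a light chain that exchanges neutral amino acids in epithelia once it is paired with the heavy chain Slc3a2. Slc7a8 read 298 and 256 in tips, 187 and 188 in stalks, and 41.6 and 28.9 in mesenchyme. Tips and stalks lay above mesenchyme on every array, and the bud exceeded mesenchyme by 2.26 ± 0.13 (SE; adjusted p = 2.6e-06). Both mesenchyme values were under the intensity of 49.3 used as the filter. The tip-minus-stalk difference of 0.52 ± 0.15 (SE; adjusted p = 0.0293) was under 2-fold.

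Slc7a7 encodes y+LAT1, another light chain of Slc3a2, which releases cationic amino acids from epithelia and is also known from macrophages. The intensity of Slc7a7 was 36.8 and 45.5 in tips, 63.9 and 71.7 in stalks, and 154 and 133 in mesenchyme. Mesenchyme was highest and tips lowest with no overlap, and the bud-minus-mesenchyme difference was -1.20 ± 0.13 (SE; adjusted p = 0.000135). The second tested probe set of the gene gave -0.75 in that comparison and was not called, and the call was lost with the mean of both (-0.98) and with a pseudocount of 64 (-0.82). The summed level of the 9 macrophage markers measured, 422 to 556 in tips, 734 to 767 in stalks and 1088 to 1102 in mesenchyme, ran in the same tissue order. Among them were Csf1r (78.7 and 148 in tips, 211 and 229 in stalks, 312 and 371 in mesenchyme) and Ctss (38.1 and 33.7, 113 and 110.1, 225 and 171), and 2 of their 8 tested genes were called lower in the bud than in mesenchyme (beside 2.18% of all genes tested). The endothelial, neuronal, erythroid and nephron progenitor markers given above ran in that order too. The part of any of these markers in the Slc7a7 result was not tested.

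The heavy chain itself, Slc3a2, also known as CD98, was measured at 1339.5 and 1348 in tips, 1155 and 1111 in stalks, and 752 and 719 in mesenchyme. It exceeded mesenchyme in both bud tissues without overlap, by 0.86 in tips and 0.61 in stalks (adjusted p = 1.5e-06 and 3.9e-05). Both differences were under 2-fold. Slc7a5, the light chain LAT1 that imports large neutral amino acids, read 241 and 257 in tips, 169 and 171 in stalks, and 149.6 and 163 in mesenchyme, and tips exceeded stalks by 0.51 ± 0.098 (SE; adjusted p = 0.00483). Slc7a1, the cationic amino acid carrier CAT1, read 955 and 882 in tips, 625 and 627 in stalks, and 486 and 506 in mesenchyme, with tips above stalks by 0.54 ± 0.058 (SE; adjusted p = 0.000184) and above mesenchyme by 0.87 ± 0.058 (SE; adjusted p = 5.1e-06). Slc1a5, the glutamine exchanger ASCT2, was 193 and 178 in tips, 113 and 112 in stalks, and 116 and 99.4 in mesenchyme, and only its tip arrays stood apart, by 0.65 ± 0.12 (SE; adjusted p = 0.00406) over stalks. The light chain Slc7a6, a close relative of Slc7a7, had a bud-minus-mesenchyme difference of -0.23 ± 0.052 (SE; adjusted p = 0.0109). Slc6a8, the creatine carrier, read 297 and 327 in tips, 286 and 279 in stalks, and 182 and 183 in mesenchyme, so tips and stalks lay close together and both exceeded mesenchyme, by 0.65 for the bud (adjusted p = 0.000206).

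Slc1a3, the glial glutamate carrier GLAST, gave unequal values between its probe sets. The probe set with the highest mean read 110.5 and 101 in tips, 178 and 171 in stalks, and 141 and 126 in mesenchyme, a tip-minus-stalk difference of -0.65 ± 0.12 (SE; adjusted p = 0.00344) under 2-fold. The 3 other tested probe sets gave -1.98, -1.32 and -1.47 and were called. All 4 had the same sign, so tips were lower than stalks on each of them. The difference between tip and mesenchyme was -0.30 on the representative probe set (adjusted p = 0.0861), and -1.44, -0.75 and -1.05 on the others.

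Including the carriers already named, 11 members were higher in tips than in both stalks and mesenchyme at adjusted p under 0.05 with no minimum fold (12.1% of the tested members, against 11.8% of all genes tested). They were Slc2a1, Slc2a3, Slc1a5, Slc3a2, Slc6a6, Slc7a1, Slc7a5, Slc7a8, Slc12a7, Slc16a13 and Slc19a2. Of these 6 are amino acid or taurine carriers, Slc6a6 being the taurine carrier, and Slc19a2 carries thiamine. Further tested probe sets of Slc6a6 gave tip-minus-stalk differences of -0.16, 0.06 and 0.56, of which only the last passed. Further ones of Slc19a2 gave 0.09 and 0.26, and neither passed. Another tested probe set gave 0.35 for Slc1a5 and 0.28 for Slc12a7 and did not pass either. With the values as deposited, without quantile normalisation, 4 members were highest in tips, namely Slc1a5, Slc2a1, Slc2a3 and Slc7a1. Without the first tip array there were 18, and without either stalk array 5. With the replicate number as a block more than 11 members were highest in tips. The tip-minus-stalk differences of the 11 ran from 0.24 for Slc3a2 to 1.24 for Slc2a3. At the same setting 4 members were highest in mesenchyme (4.4%, against 4.19%), namely Slc4a1, Slc7a7, Slc12a2 and Slc16a6, and 0 were highest in stalks (0%, against 2.78%). Slc16a6 entered the test through mesenchyme alone. Without the first stalk array 1 member was highest in mesenchyme, and without the first mesenchyme array 2. With limma's unadjusted p under 0.05 the counts were 16 in tips (17.6%, against 15.7% of all genes tested), 7 in mesenchyme (7.69%, against 8.07%) and 4 in stalks (4.4%, against 4.75%). At 2-fold, 0 members were restricted to stalks and 0 to mesenchyme, classes that held 40 and 66 of the genes tested (0.324% and 0.534%).

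**Figure D3:**
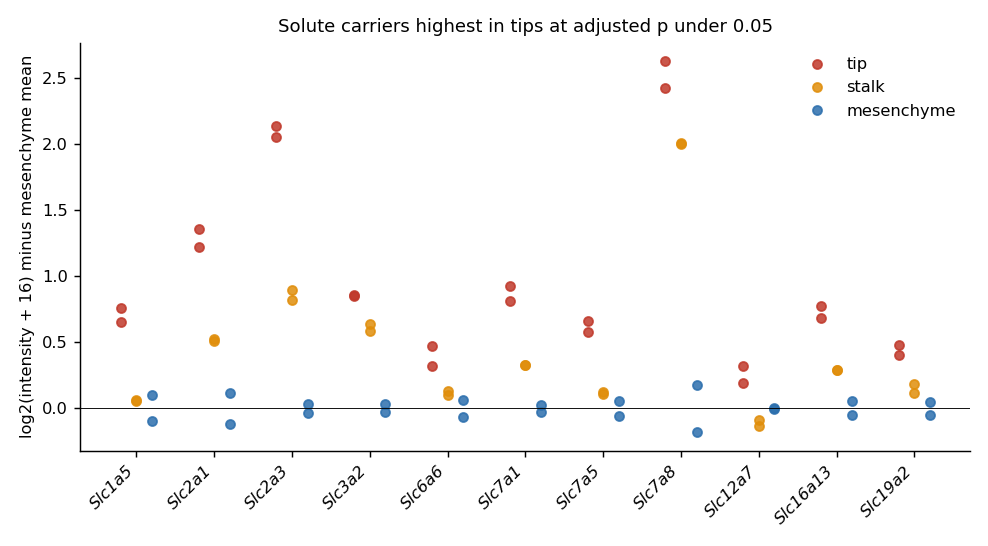
Log2(intensity + 16) of the 11 members highest in tips at adjusted p under 0.05, as the difference of each array from the mesenchyme mean of that gene. Tip points lie above stalk and mesenchyme points for every gene shown, by the widest margin for Slc2a3 among tip and stalk points. With the values as deposited 4 of these genes passed.

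Ion carriers held the sodium-calcium exchangers, which couple calcium export to sodium entry. Of 38 ion carriers 23 were tested, and 1 was called between tip and stalk (beside 5.33% of all genes tested). Between bud and mesenchyme 3 passed the adjusted p higher and 4 lower, beside 13.9% and 15.2% of all genes tested. Slc8a1, the exchanger NCX1 of heart and distal tubule, read 182 and 141 in tips, 205 and 231 in stalks, and 38.0 and 29.5 in mesenchyme. Both bud tissues lay above mesenchyme on every array, by 2.03 ± 0.14 (SE; adjusted p = 7.5e-06) for the bud, and the tip-minus-stalk difference of -0.40 ± 0.16 (SE; adjusted p = 0.0904) did not pass. The mesenchyme values were under 49.3, and the other mouse probe sets of the gene were too dim to be tested. When all its probe sets were averaged the difference became 0.71 and was no longer called.

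Slc8a3, the exchanger NCX3 of brain and muscle, was measured at 42.4 and 48.5 in tips, 121 and 102 in stalks, and 80.7 and 66.8 in mesenchyme. Both tip values were under the filter of 49.3. Stalks stood above mesenchyme and mesenchyme above tips, and the tip-minus-stalk difference was -1.05 ± 0.15 (SE; adjusted p = 0.000924). That call was lost with a pseudocount of 64 (-0.68), with the mean of its probe sets (-0.50), of which the second was too dim to be tested, in a test against a 1.5-fold difference, and without the first tip array (-0.97) or the first stalk array (-0.92). Slc24a3, a potassium-dependent sodium-calcium exchanger, read 62.2 and 93.4 in tips, 141 and 159.9 in stalks, and 177 and 189 in mesenchyme, so that tips lay lowest. Tips were lower than mesenchyme, with a tip-minus-mesenchyme difference of -1.11 ± 0.17 (SE; adjusted p = 0.000863) and a tip-minus-stalk difference of -0.85 ± 0.17 (SE; adjusted p = 0.00525). The call against mesenchyme was lost with a pseudocount of 64 (-0.81), in the test against 1.5-fold and without the first tip array (-0.85). Stromal markers, highest in stalks, were lowest in tips like both genes. So were the endothelial, neuronal, macrophage, erythroid and nephron progenitor markers, which ran in the tissue order of Slc24a3. The part of any of these markers was not tested.

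Slc12a2 encodes NKCC1, which loads cells with chloride together with sodium and potassium. Its intensity was 727 and 654 in tips, 1239.6 and 1126 in stalks, and 1544 and 1602 in mesenchyme. Each tissue was separate from the others in the order mesenchyme, stalk, tip, and tips were lower than mesenchyme, with a tip-minus-mesenchyme difference of -1.17 ± 0.066 (SE; adjusted p = 1.7e-06). All 3 tested probe sets were called in that comparison, with differences of -1.17, -1.58 and -1.30. For the whole bud the representative difference was -0.79 ± 0.057 (SE; adjusted p = 1.3e-05), under 2-fold, while the other probe sets gave -1.11 and -0.94. The potassium-chloride cotransporter Slc12a7, which moves chloride out of cells, read 456 and 499 in tips, 359.6 and 372 in stalks, and 396 and 397 in mesenchyme and was higher in tips than in stalks by 0.37 ± 0.069 (SE; adjusted p = 0.00411).

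Slc4a1 encodes band 3, the anion exchanger of red blood cells, also known from intercalated cells of the collecting duct. Slc4a1 read 71.9 and 62.6 in tips, 78.7 and 89.2 in stalks, and 169.8 and 146 in mesenchyme. Mesenchyme lay above both bud tissues, and tips were lower than mesenchyme, with a tip-minus-mesenchyme difference of -1.06 ± 0.14 (SE; adjusted p = 0.00038), a call that was lost with a pseudocount of 64 (-0.76), in the test against 1.5-fold and without the first mesenchyme array (-0.95). A second tested probe set gave -1.57 for bud minus mesenchyme against -0.93 here, and -1.48 for tip minus stalk against -0.26 here. The summed level of the 7 erythroid markers measured ran in the same order, from 8773 to 9319 in tips through 16550.3 to 16612 in stalks to 22138 to 22443 in mesenchyme, with the embryonic globin Hbb-bh1 at 567 and 540.1 in tips, 1628 and 1589 in stalks and 3616 and 3679 in mesenchyme, and Alas2, the erythroid enzyme of heme synthesis, at 40.3 and 41.1, 62.65 and 63.95, and 129 and 117. The endothelial, neuronal, macrophage and nephron progenitor markers given above ran in that order too. In rat, Slc4a1 gave bud-minus-mesenchyme differences of -0.33 on design B and 0.002 on the first design (limma adjusted p = 0.0946 and 0.998). Without the second bud labeling these were -0.34 and -0.02. The 1 erythroid marker measured on B read 623 to 773 in buds and 5868 to 6140 in mesenchyme. The 2 on the first design summed to 461 to 509 and 614 to 660. The part of any of these markers in the Slc4a1 result was not tested. The widely expressed anion exchanger Slc4a2 (219 and 209 in tips, 182 and 189 in stalks, and 163 and 136 in mesenchyme) and the sodium bicarbonate cotransporter Slc4a4 (125 and 140.2 in tips, 100.5 and 106 in stalks, and 77.8 and 69.0 in mesenchyme) had bud-minus-mesenchyme differences of 0.38 and 0.57 (adjusted p = 0.019 and 0.00515). Another tested probe set of Slc4a4 overlapped between tissues, at 50.9 and 62.75 in tips, 56.2 and 61.0 in stalks, and 53.3 and 57.1 in mesenchyme.

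Organic ion carriers held no member called between bud and mesenchyme. Of 65 measured members 32 were tested. In the limma fit 0 were called between tip and stalk and 0 between bud and mesenchyme (beside 5.33% and 5.76% of all genes tested). At an unadjusted p under 0.05 there were 6 and 6 (beside 43.6% and 38.6% of all genes tested). At the adjusted p alone 3 were higher and 0 lower in tips than in stalks, and 4 were higher and 1 lower in bud than in mesenchyme (15.9%, 17.2%, 13.9% and 15.2% of all genes). The monocarboxylate carriers of family SLC16 move lactate, pyruvate and ketone bodies with protons. Slc16a1, or MCT1, read 1941 and 1664 in tips, 1637 and 1572 in stalks, and 1082 and 987 in mesenchyme. Tips lay slightly above stalks and both stood above mesenchyme, by 0.71 ± 0.065 (SE; adjusted p = 5.7e-05) for the bud, which is under 2-fold. Slc16a3, the lactate exporter MCT4 of glycolytic cells, read 119 and 117 in tips, 84.4 and 83.6 in stalks, and 89.2 and 90.9 in mesenchyme, and tips exceeded stalks by 0.43 ± 0.12 (SE; adjusted p = 0.0272). Slc16a13, a carrier of the same family, read 183 and 171 in tips, 126 and 127 in stalks, and 96.2 and 105 in mesenchyme, in the order tip, stalk, mesenchyme without overlap. Slc16a6, a carrier of ketone bodies and taurine, read 46.8 and 34.1 in tips, 45.8 and 41.7 in stalks, and 123 and 79.7 in mesenchyme, and tips were lower than mesenchyme, with a tip-minus-mesenchyme difference of -1.04 ± 0.20 (SE; adjusted p = 0.00343). All tip and stalk values of Slc16a6 were under 49.3, so it entered the test through mesenchyme alone. The 2 mesenchyme values of Slc16a6 lay far apart, and its call was lost without the first mesenchyme array (-0.76), without the second tip array (-0.90), with a pseudocount of 64 (-0.65) and in the test against 1.5-fold. Slc22a23, an orphan member of the organic ion carriers, had a tip-minus-mesenchyme difference of 0.74 ± 0.15 (SE; adjusted p = 0.00449).

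A set of 12 carriers of the mature nephron was added after the data had been seen, comprising the salt cotransporters Slc12a1 and Slc12a3, the glucose carriers Slc5a1 and Slc5a2, the cystine carrier pair Slc3a1 and Slc7a9, the dicarboxylate carrier Slc13a3, the organic ion carriers Slc22a2, Slc22a6 and Slc22a8, and Slc17a1 and Slc17a3. In mouse 10 of the 12 stayed under the filter in every tissue, with array intensities between 10.0 and 32.5. A value under the filter gives no order between tissues and does not show that a transcript is absent. Slc5a2 (130.5 and 124 in tips, 92.6 and 91.5 in stalks, and 105 and 110.1 in mesenchyme) and Slc12a3 (54.0 and 65.5 in tips, 46.8 and 41.2 in stalks, and 48.5 and 40.9 in mesenchyme) were tested and not called in any mouse comparison. On the rat first design 9 of the 12 were measured and 4 tested, with 0 called (beside 5.83% of all genes tested there).

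Proteins that the carriers depend on were read beside them, from a list of sodium pump subunits, FXYD proteins, monocarboxylate carrier chaperones, scaffold proteins and WNK pathway kinases. Of 23 measured in mouse 20 were tested, and 0 were called between tip and stalk (beside 5.33% of all genes tested). Between bud and mesenchyme 2 were called higher and 1 lower in bud (beside 3.59% and 2.18%). Embigin (Emb), a chaperone that brings monocarboxylate carriers to the membrane, read 1140.4 and 1165 in tips, 655 and 641 in stalks, and 186 and 207 in mesenchyme, a bud-minus-mesenchyme difference of 2.05 (limma adjusted p = 3.2e-08). Atp1b1, the beta subunit of the sodium pump whose gradient drives many of these carriers, read 853 and 956 in tips, 906 and 996 in stalks, and 238 and 292 in mesenchyme, a difference of 1.75 (limma adjusted p = 1.0e-06). Fxyd6, a modulator of that pump, ran the other way at 248 and 237 in tips, 495 and 498 in stalks, and 1257 and 1255 in mesenchyme, with -1.81 (limma adjusted p = 2.6e-08). In rat, Atp1b1 read 864 and 1126 in buds and 194 and 223 in mesenchyme on the first design, a difference of 2.16 (limma adjusted p = 0.000467), and the C design gave 1.80 (limma adjusted p = 0.00213). Without the second bud labeling these were 1.96 and 1.92. Rat Fxyd6 on the C design read 193 and 223 in buds and 682 and 596 in mesenchyme, a difference of -1.55 (limma adjusted p = 0.00267), or -1.62 without that labeling. Rat Emb on the first design read 462 and 321 in buds and 263 and 219 in mesenchyme and did not pass, at 0.65 (limma adjusted p = 0.0857). Without that labeling, which leaves 1 bud array, the difference was 0.90.

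In rat buds against rat mesenchyme, 2 of 46 tested members were called on the first design (4.35%, against 5.83% of 2849 genes), 2 of 18 on design B (11.1%, against 5.39% of 2969) and 1 of 14 on design C (7.14%, against 4% of 3150). With so few members tested on B and C, 1 gene makes up 5.56% and 7.14% of them. At adjusted p under 0.05 alone the counts were 2 (4.35%, against 11.7%), 5 (27.8%, against 17.3%) and 1 (7.14%, against 10.7%). On the first design Slc2a1 and Slc16a3 were called higher in buds (4.35%, against 3.23%) and 0 members lower (0%, against 2.6%). On B Slc8a1 was called higher (5.56%, against 3.2%) and Slc12a2 lower (5.56%, against 2.19%). On C Slc7a7 was called lower (7.14%, against 1.78%) and 0 members higher (0%, against 2.22%).

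Rat Slc2a1 on the first design read 1168 and 1044 in buds and 470.0 and 419 in mesenchyme. Buds lay above mesenchyme on both labelings, by 1.28 ± 0.14 (SE; adjusted p = 0.00184), and by 1.35 without the second bud labeling. A second tested probe set on that design gave 0.59 and was not called, and the mean of both gave 0.94. On design B the gene read 852 and 346 in buds and 648 and 719.6 in mesenchyme, a difference of -0.32 ± 0.38 (SE; adjusted p = 0.602) that became 0.30 without the second bud labeling and -0.94 without the first. On design C it read 352 and 232 in buds and 228 and 240.2 in mesenchyme, a difference of 0.27 ± 0.20 (SE; adjusted p = 0.414), or 0.55 without the second bud labeling and -0.01 without the first. On B and C the second bud labeling, the one with the high Gapdh ratio, was the lower of the pair and overlapped or fell below the mesenchyme values.

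Rat Slc16a3 on the first design read 592 and 844 in buds and 315 and 350.1 in mesenchyme, and buds exceeded mesenchyme by 1.05 ± 0.19 (SE; adjusted p = 0.0149). Buds and mesenchyme did not overlap, but the second bud labeling was the higher of the pair, and without it the difference was 0.80 and under 2-fold. The call was also lost with a pseudocount of 64 (0.96), without the first mesenchyme labeling (0.99) and in the test against 1.5-fold. In mouse the bud-minus-mesenchyme difference of Slc16a3 was 0.13 ± 0.10 (SE; adjusted p = 0.456).

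Slc2a1 and Slc16a3 act at either end of glycolysis, as the entry of glucose and the exit of lactate, and both were called on the same rat design. Their rat promoters are shown for that reason, as the 250 bases before the annotated start in RefSeq (GRCr8), 5′ to 3′ on the strand of the gene, with every match to a searched motif in capitals. The motifs were the hypoxia response cores ACGTG and GCGTG, the E-box CACGTG, which contains ACGTG, the TATA box TATAAA, the CCAAT box CCAAT and the GC box GGGCGG, on both strands. The Slc2a1 window is chr5:138002272-138002521, plus strand, and the Slc16a3 window is chr10:106712078-106712327, plus strand.
Slc2a1: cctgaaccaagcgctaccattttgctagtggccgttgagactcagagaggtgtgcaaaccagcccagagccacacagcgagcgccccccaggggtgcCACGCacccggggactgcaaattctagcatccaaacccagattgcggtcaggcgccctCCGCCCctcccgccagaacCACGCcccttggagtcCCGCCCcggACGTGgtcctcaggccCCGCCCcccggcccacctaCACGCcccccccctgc
Slc16a3: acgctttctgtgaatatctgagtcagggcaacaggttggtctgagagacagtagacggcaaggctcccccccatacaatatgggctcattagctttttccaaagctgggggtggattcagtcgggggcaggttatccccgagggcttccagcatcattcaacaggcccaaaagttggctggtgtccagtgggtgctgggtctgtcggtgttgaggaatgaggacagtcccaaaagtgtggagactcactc
The Slc2a1 window held ACGTG 51 bases before the start, GCGTG on the opposite strand at 153, 76 and 16 bases before it, and GC boxes on the opposite strand at 95, 60 and 35 bases. The Slc16a3 window held none of these letters. Of 33469 rat promoter windows of that length, 16.6% held ACGTG, 25.9% GCGTG, 5.59% CACGTG, 12.9% TATAAA, 34% CCAAT and 30.5% GGGCGG. Over the 109 windows of rat members the shares were 31.2%, 36.7%, 11%, 8.26%, 33.9% and 40.4% in the same order. A match is a run of letters and not a measured binding site, and no match says nothing about a factor.

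Rat Slc8a1 differed between its probe sets. On design B it read 262 and 251 in buds and 105 and 95.2 in mesenchyme, and buds exceeded mesenchyme by 1.23 ± 0.11 (SE; adjusted p = 0.00117), or by 1.24 without the second bud labeling. On the first design it read 799 and 846 in buds and 886 and 853 in mesenchyme, a difference of -0.08 ± 0.13 (SE; adjusted p = 0.773) with both bud values below both mesenchyme values, or -0.12 without the second bud labeling. Another tested probe set on the first design gave -0.04, and its bud and mesenchyme values overlapped. Design B therefore had the direction of the mouse difference (2.03) and the first design did not. With a pseudocount of 64 the B difference was 0.96 and not called. Both mesenchyme values on B were under the filter of that design, so there the gene entered the test through buds alone.

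Rat Slc12a2 was lower in buds on design B, where it read 97.8 and 70.8 in buds and 182 and 186 in mesenchyme, a difference of -1.01 ± 0.16 (SE; adjusted p = 0.00906). Without the second bud labeling the difference was -0.81 and under 2-fold, without the second mesenchyme labeling it was -0.99, and with a pseudocount of 64 it was -0.75. In these fits, and in the test against 1.5-fold, it was not called. Both bud values on B were under the filter of that design, so there the gene entered the test through mesenchyme alone. The first design gave 141 and 114 in buds and 194 and 172 in mesenchyme, a difference of -0.48 ± 0.16 (SE; adjusted p = 0.103) that did not pass, with no overlap of the tissues, or -0.34 without the second bud labeling. The mouse value was -0.79.

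Rat Slc7a7 on design C read 74.3 and 95.3 in buds and 189 and 192 in mesenchyme, a difference of -1.04 ± 0.14 (SE; adjusted p = 0.0107), or -1.20 without the second bud labeling. Buds were lower on both labelings. Both bud values were under the filter of design C, so the gene entered the test through mesenchyme alone. Leaving out the first bud labeling gave -0.89, and leaving out the first or the second mesenchyme labeling gave -1.06 and -1.03, and in these 3 fits the gene was no longer called. The call was also lost with a pseudocount of 64 (-0.78) and in the test against 1.5-fold. The 3 macrophage markers measured on design C summed to 267 to 314 in buds and 322 to 357 in mesenchyme. In the same order the 3 endothelial markers summed to 370 to 380 and 768 to 770. The 4 stromal markers summed to 1574 to 1875 and 2499.5 to 2559, and the 2 erythroid markers to 88.9 to 91.7 and 121 to 142. The 2 neuronal markers were also lower in buds, whereas the progenitor marker Crym was higher. The part of any of these markers was not tested. Rat Slc7a8 on design B read 177 and 158 in buds and 119.7 and 102 in mesenchyme, a difference of 0.53 ± 0.13 (SE; adjusted p = 0.0361) under 2-fold, or 0.60 without the second bud labeling. Rat Slc2a3 read 357 and 398 in buds and 219.8 and 190.1 in mesenchyme on design B, a difference of 0.83 ± 0.12 (SE; adjusted p = 0.00682), and 181 and 169.7 in buds and 179.8 and 192 in mesenchyme on the first design, a difference of -0.08 ± 0.13 (SE; adjusted p = 0.789). Without the second bud labeling these were 0.75 and -0.03. Rat Slc4a4 read 239 and 242 in buds and 137 and 178 in mesenchyme on design B, a difference of 0.58 ± 0.14 (SE; adjusted p = 0.0378), or 0.56 without the second bud labeling.

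Slc7a7 and Slc7a8 encode light chains of the same family and lie on the same rat chromosome, 15, with 15 protein-coding genes between them, yet they ran in opposite directions between bud and mesenchyme in both species. Their rat promoter windows are shown because of this, in the same form, Slc7a8 at chr15:32212716-32212965 and Slc7a7 at chr15:31835684-31835933, both on the minus strand.
Slc7a8: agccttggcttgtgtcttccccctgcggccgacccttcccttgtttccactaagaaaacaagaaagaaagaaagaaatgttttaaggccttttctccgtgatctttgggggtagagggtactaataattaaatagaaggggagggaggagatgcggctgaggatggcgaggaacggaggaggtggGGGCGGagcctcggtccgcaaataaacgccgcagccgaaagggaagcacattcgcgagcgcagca
Slc7a7: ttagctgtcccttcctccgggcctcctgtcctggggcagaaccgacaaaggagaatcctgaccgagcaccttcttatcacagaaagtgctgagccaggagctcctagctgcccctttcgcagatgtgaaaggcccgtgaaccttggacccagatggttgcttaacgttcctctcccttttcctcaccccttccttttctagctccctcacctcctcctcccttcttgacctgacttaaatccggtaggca
The Slc7a8 window held 1 GC box 65 bases before the start and no other motif of the list, and the Slc7a7 window held none. The share of G and C was 53.6% in the Slc7a8 window and 55.2% in the Slc7a7 window, with 15 and 7 CG dinucleotides.

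**Figure D4:**
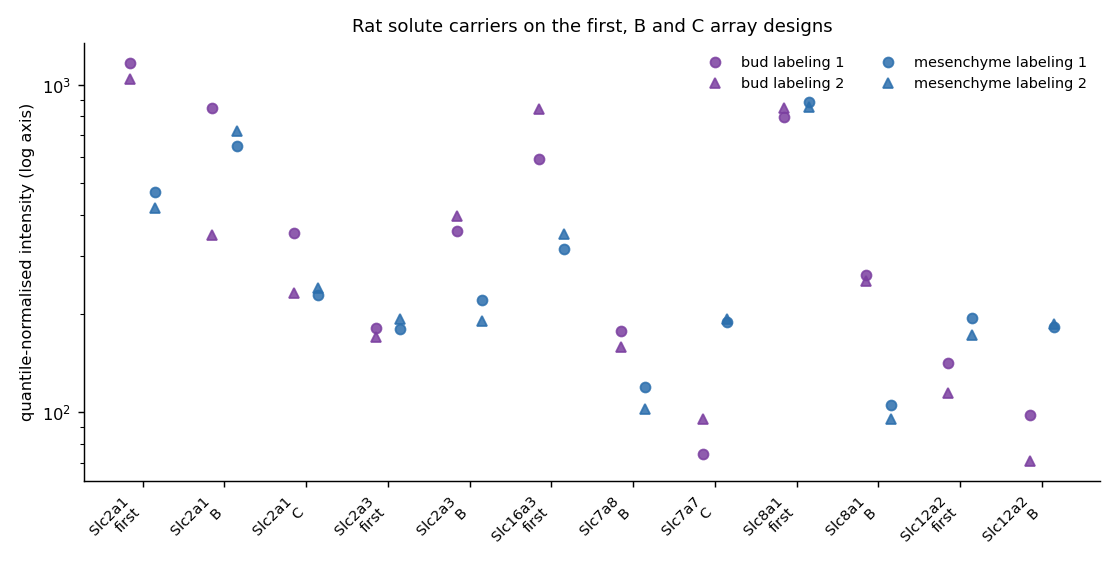
Quantile-normalised intensity on a log axis of rat members on the first, B and C designs, with buds in purple and mesenchyme in blue, circles for the first labeling and triangles for the second. The 2 bud labelings of Slc2a1 lie far apart on B and C and close together on the first design, and Slc8a1 is higher in buds than in mesenchyme on B and slightly lower on the first design.

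Of the 118 members measured in both species 50 were tested in both, as 62 pairs of a mouse gene and a rat design. Called in both in the same direction were 2 pairs, Slc8a1 (mouse 2.03, rat B 1.23) and Slc7a7 (mouse -1.20, rat C -1.04), and 0 pairs were called in opposite directions. Over all genes 169 of 7641 such pairs were called in both in the same direction (2.21%). On rat B Slc8a1 entered the test through buds alone, and on rat C Slc7a7 through mesenchyme alone. Each therefore had to be lower in the other rat tissue. With a pseudocount of 64, and with the mean of all probe sets, 0 members were called in both, and without the first bud labeling or either mesenchyme labeling of design C 1 was. In 16 of the 62 pairs bud and mesenchyme arrays did not overlap in either species and ran in the same order, and in 4 they ran in opposite order, beside 17.7% and 7.8% of the pairs over all genes. Slc2a1 (mouse 0.90, rat first 1.28) and Slc12a2 (mouse -0.79, rat B -1.01) were called in rat, and in mouse passed the adjusted p under 2-fold. Slc7a8 (mouse 2.26, rat B 0.53) and Slc2a3 (mouse 1.47, rat B 0.83) were called in mouse, and in rat passed the adjusted p under 2-fold. The heavy chain Slc3a2 gave 0.73 in mouse and 0.08 on the rat first design (rat adjusted p = 0.779), or 0.13 without the second bud labeling. Slc7a5 gave 0.37 in mouse and 0.32 on the rat first design (rat adjusted p = 0.276), or 0.50 without that labeling. Species, stage, dissection and array design differ together between these values and cannot be told apart, so no difference between species was tested.

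**Figure D5:**
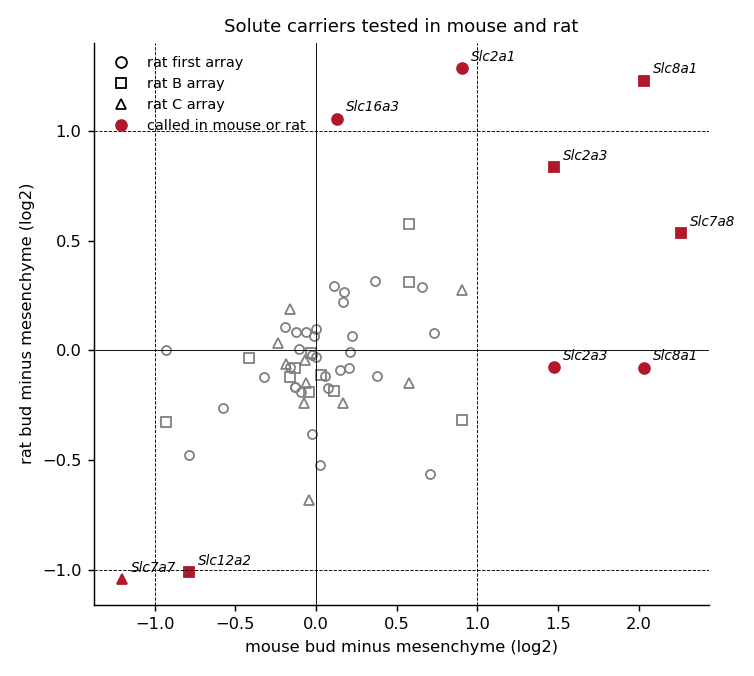
Bud-minus-mesenchyme difference (log2) of the members tested in both species, mouse on the horizontal and rat on the vertical axis, with circles, squares and triangles for the rat first, B and C designs. Filled red points were called in mouse or on that rat design, and Slc8a1 on B and Slc7a7 on C lie beyond 2-fold on both axes.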

How the data were processed

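RNA from 18 arrays was analysed, 6 of mouse tissue and 12 of rat tissue on 3 array designs. The 4 deposited tables hold 1 linear intensity per probe set and array. How the authors scaled and summarised these intensities is not stated in the labels or tables. Intensities were quantile normalised within each table, 16 was added, log2 was taken, and control probe sets were dropped. Tested were 23919 of 45037 mouse probe sets and 4616, 4657 and 4648 of 8740, 8732 and 8730 on the rat designs. Differences were fitted with limma 3.58.1 in R 4.3.3 (lmFit, and eBayes with trend), in 1 fit for the mouse and 1 for each rat design, with Benjamini-Hochberg adjustment over all probe sets of a table. The fit was tested on simulated data. The 2 arrays per tissue limit the precision.

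Genes were named from the platform annotation, and each was represented by its single-symbol probe set with the highest mean log2 intensity. In the mouse comparisons every gene tested at 2-fold also passed the adjusted p, so the fold set the mouse counts. Members called restricted to a tissue, called between tip and stalk or bud and mesenchyme, called on a rat design, or with probe sets that disagree were given in full, and relatives of these were named beside them. Promoter windows came from RefSeq (GRCr8), which held an entry for 101 of the 123 rat members. The members, gene lists and rule for named genes were chosen with earlier results of these data known.

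Alternatives were the values as deposited, a pseudocount of 64, no filter, the mean of all probe sets, no intensity trend, a test against 1.5-fold, the replicate number as a block, and leaving out each array.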

Additional observations from a re-analysis of the deposited data

Results flagged for a closer look

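The 4 members below were flagged because every bud array lay above every mesenchyme array in mouse and below every one on 1 rat design. They are 4 of 62 pairs of a mouse gene and a rat design tested in both, and in 16 others the tissues did not overlap and ran in the same order in both species. Over all genes 7.8% of 7641 pairs ran in opposite order without overlap and 17.7% in the same order. The difference between species was not tested. Slc16a1, the lactate carrier MCT1, was 0.71 higher on the log2 scale in mouse bud than in mouse mesenchyme and gave -0.56 on the rat first design (543 and 348 in buds and 596 and 706 in mesenchyme), where the second bud labeling was the lower. Another tested Slc16a1 probe set on that rat design gave 0.096 with overlap (165 and 198 in buds and 163 and 173 in mesenchyme). Slc4a2, an anion exchanger, gave 0.38 in mouse and -0.11 on the rat first design (295 and 261 in buds and 303 and 300.3 in mesenchyme). Another tested Slc4a2 probe set on that rat design gave -0.15, also without overlap. Slc4a4, a sodium bicarbonate cotransporter, gave 0.57 in mouse and -0.15 on the rat C design (139 and 144 in buds and 159.6 and 158 in mesenchyme), whereas the rat B design gave 0.58. Another tested mouse probe set of Slc4a4 overlapped between bud and mesenchyme. Slc8a1, a sodium-calcium exchanger, gave 2.03 in mouse and -0.08 on the rat first design, whereas the rat B design gave 1.23. Another tested Slc8a1 probe set on the rat first design overlapped, at 188 and 137 in buds and 183 and 151 in mesenchyme. None of the 4 passed on those rat designs, with limma adjusted p of 0.167, 0.658, 0.358 and 0.773. Without the second bud labeling the 4 rat differences were -0.25, -0.03, -0.17 and -0.12, in the same order.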

How the results depend on the processing

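The members called in a comparison, with disagreeing probe sets, or highest in a single tissue at adjusted p under 0.05 were recomputed under each alternative. Other named genes were left out, and so were mouse differences that did not pass the adjusted p in the main fit. This gave 1026 values over 82 gene comparisons. Of these 971 stayed on the same side of the threshold, 42 fell below it, 13 passed it anew and 0 called values reversed. Among the 971 are uncalled differences that changed sign, such as rat Slc2a1, on B without the second bud labeling (0.30) and on C without the first (-0.01). With a pseudocount of 64 the members called were 1 between tip and stalk, 5 between tip and mesenchyme, 1, 0 and 0 on the rat first, B and C designs, and 0 in both species. With the mean of all probe sets they were 0 between tip and stalk, 1 between stalk and mesenchyme, 2 between bud and mesenchyme, 1 on the rat first design, 0 restricted to a tissue and 0 in both species. In the test against 1.5-fold they were 1 between tip and stalk and 1, 1 and 0 on the rat designs. With the values as deposited, 14 members passed the adjusted p between tip and stalk, 4 higher and 10 lower in tips, against 13 and 10, and 4 members were highest in tips. A larger pseudocount shrinks differences by construction, and the cause of the other shifts was not tested.

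Arrays of different tissues with the same replicate number deviated together (correlations of 0.474, 0.574 and 0.431 in mouse and 0.311, 0.219 and 0.287 in rat). With only 2 numbers and no pairing stated in the labels, the source of this shared deviation cannot be told. With that replicate block, 42 members passed the adjusted p between tip and stalk, 21 between stalk and mesenchyme, 4 on the rat first design and 2 on C, and 21 members were highest in tips.

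A tissue left with 1 array is assumed to vary like the other tissues. Leaving out 1 array at a time gave 1 to 3 called members between tip and stalk (9 to 42 by adjusted p), 7 to 10 between tip and mesenchyme (25 to 42), 2 to 4 between stalk and mesenchyme (8 to 17) and 4 to 6 between bud and mesenchyme (15 to 30). It gave 1 to 2 on the rat first design (1 to 12), 1 to 2 on B (2 to 7) and 0 to 1 on C (0 to 2), 1 to 3 restricted to a tissue, 5 to 18 highest in tips and 1 to 5 highest in mesenchyme at any fold, and 1 to 3 called in both species. Without the first tip array 42 members passed between tip and stalk, and without either stalk array 9. Without the second mesenchyme array 4 were called between stalk and mesenchyme, 3 were restricted to a tissue, and 15 passed between bud and mesenchyme. On the rat first design 12 passed without the first bud labeling, 5 without the second and 1 without the first mesenchyme labeling. On B, 3 and 2 passed without the first and second mesenchyme labeling, and 1 was called without the second bud or second mesenchyme labeling. On C, 0 were called without the first bud labeling or either mesenchyme labeling. Signals near the table median, such as mesenchymal Slc7a8 and Slc8a1, set a limit on the folds.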
